A study of Mus musculus with 4 samples.

Results

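Expression of 4 transcription factor genes of supporting cells, *Sox2*, *Pax6*, *Hes1*, and *Sox9*, and of 3 Notch receptor genes, *Notch1*, *Notch2*, and *Notch3*, was examined in cells sorted from the main olfactory epithelium (MOE) of mice. These 7 genes were taken by symbol from the 24421 genes with deposited values, and all 7 were found. RNA-seq was done on 4 libraries, each from 1 sorted population. GFP-positive and GFP-negative cells came from TAAR enhancer 1-GFP transgenic mice, and tdTomato-positive and tdTomato-negative cells came from TAAR enhancer 2-tdTomato transgenic mice. Both lines are labeled C57BL/6 and adult. The reporting summary of the study instead gives juvenile ages, with a wider range for the TAAR enhancer 2-tdTomato line. It also gives mixed backgrounds and both sexes. Each transgene is a PiggyBac insertion in which 1 enhancer of the *Taar* cluster (*Taar* genes encode trace amine-associated receptors, or TAARs) drives the reporter through a minimal promoter of *Hsp68*. Each line goes back to 1 founder. The reporter-negative cells carry the same transgene as the reporter-positive cells. The enhancer, the reporter protein, and the founder differ between the lines together, age may differ as well, and these cannot be told apart. Every group has 1 library, so no difference below could be set against the spread between replicates, and p-values are not given.

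The MOE holds olfactory sensory neurons (OSNs), sustentacular cells that support them, Bowman glands, and the horizontal and globose basal cells from which the others are renewed. In Notch signaling, a ligand on one cell binds a Notch receptor on its neighbor, γ-secretase cuts the receptor, and the freed receptor domain enters the nucleus and joins the DNA-binding protein RBPJ to switch on target genes such as *Hes1*. HES1 is a basic helix-loop-helix repressor that holds back proneural genes, and it marks sustentacular cells in the MOE. SOX2 is a high-mobility-group factor of neural progenitors that is also present in sustentacular and basal cells. PAX6 is a paired-box and homeodomain factor needed to form the olfactory placode, and SOX9 is a SOX factor known from Bowman glands and their ducts. *Notch1* is known from basal cells, *Notch2* from sustentacular cells, and *Notch3* from pericytes and vascular smooth muscle.

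In the GENCODE M21 annotation of GRCm38 (mm10), *Sox2* has 1 exon and lies at chr3:34650405-34652461 on the plus strand, inside the long non-coding gene *Sox2ot* of the same strand. *Sox2ot* was listed at 0 in the reporter-negative libraries and reached 1.19 TPM in the GFP-positive and 2.63 TPM in the tdTomato-positive library, far below *Sox2*. *Pax6* is at chr2:105668900-105697364 on the plus strand, and its antisense neighbor *Pax6os1* was at 0.345 TPM in GFP-positive cells and listed at 0 in the other 3 libraries. *Hes1* (chr16:30064384-30067796) and *Sox9* (chr11:112782224-112787760), both on the plus strand, overlap no other annotated gene. *Notch1* (chr2:26457903-26516663, minus strand), *Notch2* (chr3:98013527-98150361, plus strand), and *Notch3* (chr17:32120820-32166852, minus strand) have transcripts of up to 34, 34, and 33 exons. No 50-base window of the transcripts of any of the 7 genes occurs in a transcript of another of them. Windows shared with other genes make up 9.11% of those of *Notch1*, 3.76% of *Notch2*, 4.93% of *Notch3*, and 0.443% of *Pax6*, and none of those of *Sox2*, *Hes1*, and *Sox9*. The annotated overlapping partners *Gm13568* and *0610009E02Rik* (*Notch1*), *Gm42820* (*Notch2*), and *Gm17276* (*Notch3*) hold such windows and were not analysed here. How reads were assigned between such genes, and whether strand was used, are not given in the sources used here.

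Upstream sequence is shown for *Sox2*, which had the highest level of the 7 genes in both reporter-positive libraries, and for the 3 receptor genes, whose levels moved apart from each other. Each run covers 230 bases, from 250 to 21 bases before the RefSeq start site (GRCm38.p6), written 5′ to 3′ on the strand of the gene. It holds no base of a GENCODE exon on that strand. The RefSeq start of *Notch1* lies inside its GENCODE span. Capitals mark matches, on either strand, to the SOX core ACAAAG and to the N box CACNAG, a sequence known to be bound by HES proteins. The runs are at chr3:34649745-34649974 for *Sox2*, chr2:26503843-26504072 for *Notch1*, chr3:98013288-98013517 for *Notch2*, and chr17:32166911-32167140 for *Notch3*.
Sox2: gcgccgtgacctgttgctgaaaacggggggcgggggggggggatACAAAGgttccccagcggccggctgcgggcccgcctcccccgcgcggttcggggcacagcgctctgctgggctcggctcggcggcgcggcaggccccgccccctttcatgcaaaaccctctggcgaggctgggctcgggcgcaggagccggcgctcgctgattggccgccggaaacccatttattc
Notch1: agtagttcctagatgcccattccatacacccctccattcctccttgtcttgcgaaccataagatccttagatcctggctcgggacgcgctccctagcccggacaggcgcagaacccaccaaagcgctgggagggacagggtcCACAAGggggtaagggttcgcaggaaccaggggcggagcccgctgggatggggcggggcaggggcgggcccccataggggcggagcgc
Notch2: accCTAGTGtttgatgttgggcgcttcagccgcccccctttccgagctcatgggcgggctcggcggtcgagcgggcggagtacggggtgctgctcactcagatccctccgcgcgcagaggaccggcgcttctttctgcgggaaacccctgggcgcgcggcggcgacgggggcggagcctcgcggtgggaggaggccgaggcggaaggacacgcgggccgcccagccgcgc
Notch3: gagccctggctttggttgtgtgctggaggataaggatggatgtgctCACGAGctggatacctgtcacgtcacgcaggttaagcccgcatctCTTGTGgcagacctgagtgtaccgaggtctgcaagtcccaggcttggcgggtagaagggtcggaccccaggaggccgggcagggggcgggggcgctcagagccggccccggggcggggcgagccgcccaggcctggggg
*Sox2* has 1 SOX core, 206 bases before the start. The N box occurs in *Notch1* at 108 bases and in *Notch2* at 247 bases before the start. *Notch3* has it at 204 and at 159 bases before the start. The core of the RBPJ site, TGGGAA, and another SOX core, ACAATG, were not matched in any of the 4 runs. Of 32851 RefSeq promoter windows of the same length, 20.0% hold TGGGAA, 34.5% hold CACNAG, 15.4% hold ACAAAG, and 10.1% hold ACAATG, so such matches are common. The 2 *Pax6* start sites in RefSeq differ, with none of these motifs upstream of the first and 1 SOX core and 1 N box upstream of the second. *Hes1* and *Sox9* have no entry in the promoter table.

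Values are TPM, transcript abundances scaled by transcript length and to the same total in each library, so that levels of different genes in a library can be compared. The number of reads behind each value is unknown. The 10 highest genes took 31.5% of all TPM in GFP-positive cells and between 5.72% and 9.44% in the other libraries, which lowers every other value in GFP-positive cells. The summed TPM of 12 marker genes of mature OSNs was 27717 and 28564 in the reporter-negative libraries, 3071 in the GFP-positive library, and 12793 in the tdTomato-positive library. Summed *Taar* TPM was 60.8 and 86.1 in reporter-negative cells and 804.1 and 3476 in GFP-positive and tdTomato-positive cells. Marker genes of sustentacular cells summed to 1397 TPM in GFP-negative against 13211 TPM in GFP-positive cells, and to 2375 and 10736 TPM in tdTomato-negative and tdTomato-positive cells. By in situ hybridization, the study found *Taar* transcripts in most reporter-positive OSNs of both lines, and odorant receptor transcripts in few. The labels name reporter-positive cells by the TAAR enhancer and give no cell type, and markers of OSNs and of supporting cells were found together in both reporter-positive libraries. In such bulk libraries, fewer cells of a type and less RNA per cell cannot be told apart.

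*Sox2*, *Hes1*, and *Sox9* were all higher in reporter-positive than in reporter-negative cells of both lines, by at least 2-fold. *Pax6* was higher in both lines too, but by at least 2-fold in the TAAR enhancer 1-GFP line only, and the difference between the lines was not tested. *Sox2* was at 14.4 TPM in GFP-negative against 108.3 TPM in GFP-positive cells, and at 17.2 TPM in tdTomato-negative against 148.5 TPM in tdTomato-positive cells. The lower of the reporter-positive values was 6.31 times the higher of the reporter-negative values. On the log2(TPM + 1) scale used for all fold changes here, which understates the change of low genes, *Sox2* changed by 2.83 in the GFP line and 3.04 in the tdTomato line.

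*Hes1* was at 22.1 TPM in GFP-negative against 69.5 TPM in GFP-positive cells, and at 16.6 TPM in tdTomato-negative against 63.8 TPM in tdTomato-positive cells. Its log2 fold changes were 1.61 and 1.88, the smallest of the 3 genes. *Sox9* was the least abundant of the 7 genes in both reporter-negative libraries, at 1.02 TPM in GFP-negative and 1.78 TPM in tdTomato-negative cells. It reached 18.0 TPM in GFP-positive and 27.5 TPM in tdTomato-positive cells. Its log2 fold changes of 3.23 and 3.36 were the largest of the 7 genes in both lines, and they rest on reporter-negative levels near the pseudocount. With a pseudocount of 10 they were 1.34 and 1.67, below those of *Sox2* (2.28 and 2.54), and with a scaling to markers of mature OSNs they were also below those of *Sox2*.

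*Pax6* was at 3.25 TPM in GFP-negative against 20.4 TPM in GFP-positive cells, and at 7.91 TPM in tdTomato-negative against 11.9 TPM in tdTomato-positive cells. Reporter-positive values thus lay above both reporter-negative values, with log2 fold changes of 2.33 in the GFP line and 0.54 in the tdTomato line. *Pax6* also differed between the reporter-negative libraries, by 1.07 on the log2 scale. When each reporter-positive library was set against the reporter-negative library of the other line, a choice made after the data were seen, *Pax6* changed by 1.26 in GFP-positive and by 1.61 in tdTomato-positive cells.

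**Figure D1:**
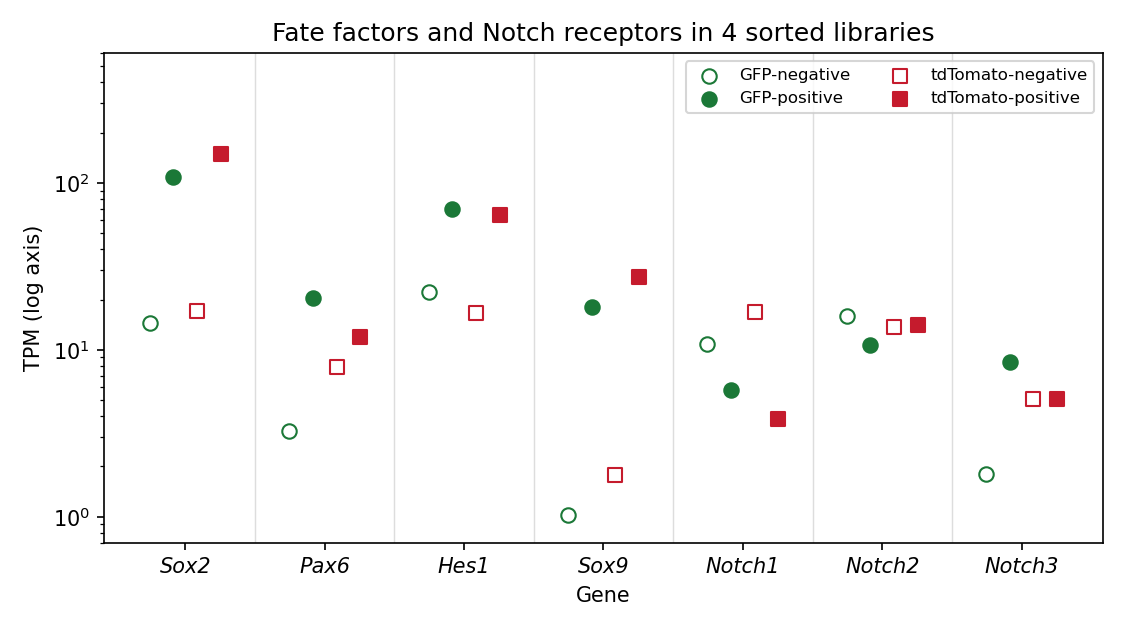
TPM on a log axis for each of the 7 genes in the 4 libraries, with 1 point per library, open symbols for reporter-negative cells and filled symbols for reporter-positive cells. For *Sox2*, *Pax6*, *Hes1*, and *Sox9* both filled symbols lie above both open ones in the TPM as deposited, while for *Notch1* both lie below, an order that rescaling turns in the GFP line.

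In the GFP line, 5 of the 7 genes were at least 2-fold higher (the 4 transcription factor genes and *Notch3*) and 0 were at least 2-fold lower. Of the 16173 genes that reached 1 TPM in that line, 14.2% were higher and 45% lower by this measure. In the tdTomato line, 3 of the 7 genes were higher (*Sox2*, *Hes1*, and *Sox9*) and *Notch1* was lower, beside 17.2% higher and 23.2% lower among 15777 genes. The 3 genes higher in both lines stand beside 8.42% of the 15033 genes compared in both lines. The median log2 fold change of the 7 genes was 1.75 in the GFP line and 0.54 in the tdTomato line, and the median of all genes compared was -0.88 and -0.23. Relative to these medians, the difference of *Sox2*, *Hes1*, and *Sox9* was larger still. The median of the transcription factor genes was 2.58 and 2.46, and that of the Notch receptor genes was -0.53 and near 0 (-0.00023).

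The share of higher and lower genes depends on how the libraries are scaled. When the libraries were scaled by the median ratio of genes, 22.4% of genes were higher and 21.5% lower in the GFP line, and 18.7% and 20.1% in the tdTomato line. When they were scaled to equal levels of the mature OSN markers, which assumes that these do not differ, 76.3% were higher and 7.88% lower in the GFP line, and 38.9% and 12.9% in the tdTomato line. *Sox2*, *Hes1*, and *Sox9* were at least 2-fold higher in both lines under each of these scalings. Decreases are less firm, and many of those below turned into increases with the scaling to OSN markers.

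Between the reporter-negative libraries, *Pax6* (1.07) and *Notch3* (1.11) were at least 2-fold higher in tdTomato-negative cells, 2 of the 7 genes beside 23.8% of 15899 genes in either direction. The other 5 genes differed by between -0.39 (*Hes1*) and 0.59 (*Notch1*) on the log2 scale. Between the reporter-positive libraries, 0 of the 7 genes differed by 2-fold, beside 46.7% of 15121 genes, with differences from -0.72 (*Pax6*) to 0.59 (*Sox9*) where the median of all genes was 0.69.

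The order of the levels changed between sorted populations. In GFP-negative cells *Hes1* was highest, followed by *Notch2*, *Sox2*, and *Notch1*. In tdTomato-negative cells *Sox2*, *Notch1*, and *Hes1* were within 16.6 to 17.2 TPM, an order that cannot be resolved with 1 library. In both reporter-positive libraries *Sox2* was first, *Hes1* second, and *Notch1* last. Ratios of genes within a library do not depend on how libraries are scaled. The TPM ratio of *Sox2* to *Hes1* was 0.652 in GFP-negative and 1.56 in GFP-positive cells, and 1.04 in tdTomato-negative and 2.33 in tdTomato-positive cells, so *Sox2* increased more than *Hes1* in both lines. The ratio of *Sox2* to *Sox9* went the other way, from 14.0 to 6.03 in the GFP line and from 9.63 to 5.40 in the tdTomato line.

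Marker genes of several non-neuronal cell types moved with these transcription factors, in full or in part. The counts that follow stand beside 14.2% of all genes higher and 45% lower in the GFP line, and 17.2% and 23.2% in the tdTomato line. All 8 sustentacular cell markers were at least 2-fold higher in GFP-positive cells. In tdTomato-positive cells 4 were higher (*Cyp2a5*, *Cyp2j6*, *Cbr2*, and *Ugt2a1*), 2 were lower (*Cyp2g1* and *Cyp1a2*), and 2 were neither. Bowman gland markers summed to 1719 TPM in GFP-negative against 68918 TPM in GFP-positive cells, and to 240.7 and 2031 TPM in tdTomato-negative and tdTomato-positive cells, with 5 of 5 and 4 of 5 genes higher and *Muc2* lower in the tdTomato line (-1.48). The log2 ratio of these sums was 5.33 and 3.08, and *Bpifb9a* and *Bpifb9b* made up most of each sum. Multiciliated cell markers summed to 372.8 and 1470 TPM in the GFP line and to 373.0 and 5090 TPM in the tdTomato line, with 7 of 8 and 8 of 8 genes higher. None of the markers of these 3 cell types was at 0 in a reporter-positive library. Horizontal basal cell markers, which share *Sox2* expression with sustentacular cells, went in sum from 67.3 to 655.3 TPM in the GFP line, with 5 of 6 genes higher, and from 155.4 to 40.9 TPM in the tdTomato line, with 5 of 6 lower and *Itgb4* higher. Microvillar cell markers summed to 48.9 and 243.9 TPM in the GFP line, with 3 of 5 genes higher and 1 lower, and to 255.4 and 236.4 TPM in the tdTomato line, with 0 of 6 higher and 3 lower. The microvillar markers *Ascl3*, *Foxi1*, and *Cftr* were lowest in GFP-negative cells, as were *Pax6* and *Notch3*. *Foxi1* was at 6.84 TPM there and at 26.4 to 33.2 TPM in the other 3 libraries. In contrast, *Trpm5*, *Pou2f3*, and *Chat* were lowest in a reporter-positive library. The part of each cell type in the levels of the 7 genes was not tested.

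The Notch receptor genes did not move as a group. *Notch1* was at 10.8 TPM in GFP-negative against 5.73 TPM in GFP-positive cells, and at 16.8 TPM in tdTomato-negative against 3.83 TPM in tdTomato-positive cells. Both reporter-positive values lay below both reporter-negative values. The log2 fold change was -0.81 in the GFP line, close to the median of all genes there, and -1.88 in the tdTomato line. With the median-ratio scaling the change in the GFP line was -0.03, and with the scaling to OSN markers it was 1.84. In the tdTomato line *Notch1* had a negative value under all scalings, but with the scaling to OSN markers (-0.92) it was no longer 2-fold lower.

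*Notch2* was at 15.9 TPM in GFP-negative against 10.7 TPM in GFP-positive cells, and at 13.6 TPM in tdTomato-negative against 14.0 TPM in tdTomato-positive cells. Its log2 fold changes were -0.53 and 0.04, and the reporter-positive values did not separate from the reporter-negative ones. In the GFP line its sign turned with the median-ratio scaling (0.29) and with the scaling to OSN markers (2.22). *Notch3* was at 1.81 TPM in GFP-negative against 8.41 TPM in GFP-positive cells, a log2 fold change of 1.75. It was at 5.07 TPM in both tdTomato-negative and tdTomato-positive cells. Its level thus differed between the reporter-negative libraries as well, by 1.11 on the log2 scale. Against tdTomato-negative cells, the log2 fold change of *Notch3* in GFP-positive cells was 0.63, and against GFP-negative cells that in tdTomato-positive cells was 1.11. *Notch4*, the other receptor gene and not one of the 7, was between 0.247 and 1.05 TPM in the 4 libraries.

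The summed TPM of the 4 receptor genes was 29.0 in GFP-negative, 25.1 in GFP-positive, 36.5 in tdTomato-negative, and 23.4 in tdTomato-positive cells. Their make-up differed more than their sum. *Notch1* made up 37.3% and 45.9% of receptor TPM in GFP-negative and tdTomato-negative cells, and 22.8% and 16.3% in GFP-positive and tdTomato-positive cells. *Notch3* made up 6.23% in GFP-negative and 33.5% in GFP-positive cells, and 13.9% in tdTomato-negative and 21.6% in tdTomato-positive cells. *Notch2* went from 54.8% to 42.6% in the GFP line and from 37.3% to 59.9% in the tdTomato line. The *Notch1* share was thus smaller after sorting for the reporter in either line, which no scaling of the libraries changes. In the GFP line this came mainly with more *Notch3*, as the TPM ratio of *Notch1* to *Notch2* was 0.680 and 0.536 there, against 1.23 and 0.273 in the tdTomato line. The larger *Notch3* share in the tdTomato line came with an equal *Notch3* level and less *Notch1*, and the TPM ratio of *Notch3* to *Notch2* there was 0.372 and 0.361, against 0.114 and 0.787 in the GFP line.

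**Figure D2:**
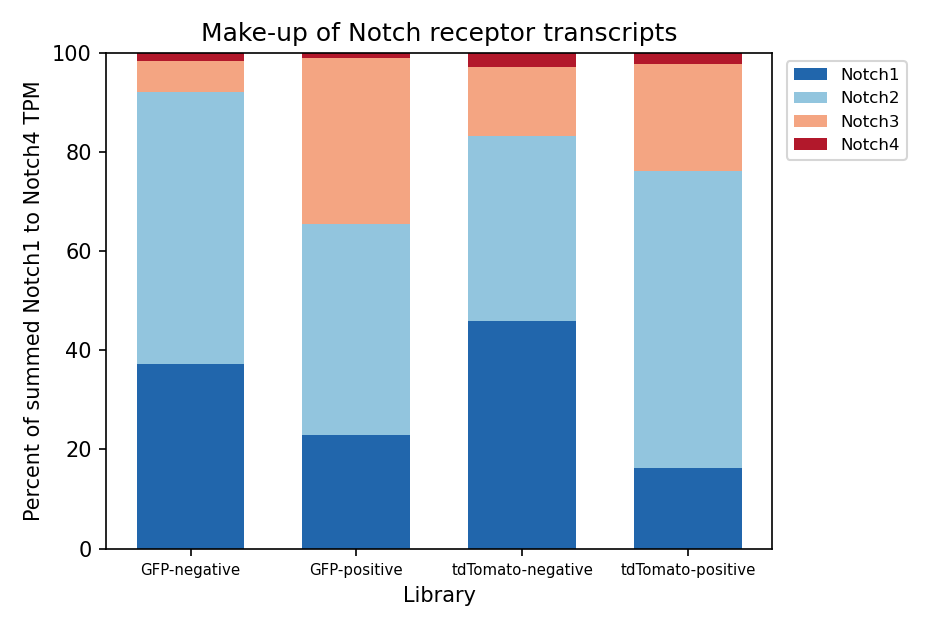
Percent of the summed TPM of *Notch1* to *Notch4* taken by each receptor gene, with 1 bar for each library. The *Notch1* share is 37.3% and 45.9% in the reporter-negative libraries and 22.8% and 16.3% in the reporter-positive ones.

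Immune cell markers were lower in reporter-positive cells as well, and markers of vascular cells were mixed. The 6 immune markers summed to 3011 TPM in GFP-negative against 46.1 TPM in GFP-positive cells, and to 1054 and 25.8 TPM in tdTomato-negative and tdTomato-positive cells, with all 6 at least 2-fold lower in both lines, beside 15.4% of all genes compared. With the scaling to OSN markers, 4 and 5 of the 6 stayed so and *Cd68* turned in the GFP line. In GFP-positive cells *Cd3e* was at 0. Endothelial markers summed to 57.8 and 1.86 TPM in the GFP line and 45.7 and 9.03 TPM in the tdTomato line, and most of this was *Pecam1*. Of the endothelial markers that reached 1 TPM, 5 of 6 were lower in the GFP line and 2 of 3 (*Pecam1* and *Cdh5*) in the tdTomato line, beside 45% and 23.2% of all genes, and *Kdr* turned in the GFP line with the scaling to OSN markers. *Cdh5* and *Cldn5* were at 0 in both reporter-positive libraries, and *Tek* was at 0 in tdTomato-positive cells. Of the mural cell markers, *Rgs5* moved with *Notch3* in the GFP line, from 37.4 to 261.9 TPM, and was lower in the tdTomato line, from 158.2 to 15.2 TPM. The other 7 mural markers were at most 5.93 TPM in any library, with *Pdgfrb* lower in the GFP line (-1.05) and *Myh11* higher in the tdTomato line (1.77). The part of immune, vascular, and mural cells in the receptor values was not tested.

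Other genes of the Notch pathway were taken from lists by role, 49 genes besides *Hes1* and the 3 receptor genes. In the GFP line, 4 of the 47 that reached 1 TPM were at least 2-fold higher and 20 were lower, beside 14.2% and 45% of all genes, and their median log2 fold change was -0.92. In the tdTomato line, 4 of 48 were higher and 7 were lower, beside 17.2% and 23.2%, and the median was -0.16. With the scaling to OSN markers, 0 of the pathway genes stayed 2-fold lower in the GFP line. No gene of the 49 was higher in both lines, and 3 were lower in both, *Mfng*, *Rfng*, and *Itch*, beside 8.42% higher and 15.4% lower in both among all genes compared. With the median-ratio scaling the 3 became 1, *Mfng*, and with the scaling to OSN markers 0.

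Of the 5 ligand genes, *Jag2* was the most abundant in all 4 libraries, at 84.5 and 35.3 TPM in GFP-negative and GFP-positive cells and at 108.9 and 90.5 TPM in tdTomato-negative and tdTomato-positive cells. *Jag1* was at 15.4 and 16.5 TPM in the GFP line and at 15.4 and 35.7 TPM in the tdTomato line, a log2 fold change of 0.09 and 1.16. The TPM ratio of *Jag1* to *Jag2* was higher in reporter-positive cells of both lines, 0.183 against 0.466 in the GFP line and 0.141 against 0.394 in the tdTomato line. The Delta-like ligand genes stayed at or below 6.62 TPM. *Dll1* was higher in GFP-positive cells (1.33), *Dll4* was lower in tdTomato-positive cells (-1.39), and *Dll3* was listed at 0 in tdTomato-negative and at 2.73 TPM in tdTomato-positive cells. Of the 4 genes for ubiquitin ligases that act in ligand uptake, 3 were lower in GFP-positive cells, *Mib2* most (-1.75), beside 45% of all genes, and 0 passed the 2-fold limit in the tdTomato line. With the median-ratio scaling 0 of the 4 were 2-fold lower in the GFP line, and with the scaling to OSN markers all 4 turned higher there, as did *Dll4*, while *Jag2* turned in both lines.

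The 15 genes for receptor processing include the Fringe glycosyltransferases, which tune how receptors respond to ligands, and the γ-secretase subunits. *Mfng*, encoding the Manic Fringe enzyme, showed the largest decrease of the pathway in the GFP line. It was at 47.5 TPM in GFP-negative against 6.22 TPM in GFP-positive cells, and at 42.0 TPM in tdTomato-negative against 6.73 TPM in tdTomato-positive cells, with log2 fold changes of -2.75 and -2.47. *Lfng*, encoding Lunatic Fringe, was at 15.9 and 14.8 TPM in the GFP line and at 32.1 and 60.1 TPM in the tdTomato line (-0.10 and 0.89). *Rfng*, encoding Radical Fringe, was lower in both (-1.35 and -1.09). The Fringe genes therefore differed in direction or size. Of the other processing genes, *Furin*, whose product makes the first cut of the receptor, was higher in GFP-positive cells (1.29), and *Psen2*, a γ-secretase subunit gene, was lower there (-2.12). With the scaling to OSN markers, *Rfng* and *Psen2* turned higher in the GFP line, as did 10 others of the 15 genes. In the tdTomato line *Adam10*, encoding the protease that cuts the receptor after ligand binding, was the only processing gene past the 2-fold limit besides *Mfng* and *Rfng* (-1.10), and of these 3 genes 1 was still 2-fold lower with the median-ratio scaling and 1 with the scaling to OSN markers.

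*Rbpj* was at 33.9 and 16.6 TPM in the GFP line and at 56.0 and 38.8 TPM in the tdTomato line, with log2 fold changes of -0.99 and -0.52. Of the 7 genes of the nuclear complex, 3 were lower in GFP-positive cells, *Crebbp* most (-2.32), a share close to the 45% of all genes. In the tdTomato line 1 was higher, the co-activator gene *Maml2* (1.38, from 7.52 to 21.2 TPM). Of 7 co-repressor genes, 4 were lower and *Tle2* was higher (1.43) in GFP-positive cells, and 0 passed in the tdTomato line. Of 4 inhibitor genes, *Numb*, *Numbl*, and *Itch* were lower in GFP-positive cells (-1.29, -1.27, and -1.09), and *Itch* was lower in tdTomato-positive cells (-1.01). These decreases in the GFP line depend on the scaling. With the median-ratio scaling, 1 of the 7 nuclear complex genes, 2 of the 7 co-repressor genes, and 0 of the 4 inhibitor genes were 2-fold lower there. With the scaling to OSN markers, 6 nuclear complex genes (all but *Maml2*), 5 co-repressor genes, and all 4 inhibitor genes turned, and 6, 5, and 4 of these lists were 2-fold higher. In the tdTomato line 5 nuclear complex genes turned too, *Rbpj* and *Crebbp* among them.

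Of the other target genes of Notch signaling, 5 reached 1 TPM in each line. *Hes7* was compared in the GFP line only, and *Hey2* in the tdTomato line only. In the GFP line 1 was higher (*Hey1*) and 1 lower (*Hes7*, -1.14), beside 14.2% and 45% of all genes. In the tdTomato line 1 was higher (*Hey2*) and 2 lower (*Hes5* and *Nrarp*), beside 17.2% and 23.2%. These counts depend on the scaling, and in the GFP line the median-ratio scaling gave 3 higher and 0 lower. *Hey1*, a relative of *Hes1*, was at 18.3 TPM in GFP-negative against 122.3 TPM in GFP-positive cells, and at 29.7 TPM in tdTomato-negative against 49.2 TPM in tdTomato-positive cells, with log2 fold changes of 2.68 and 0.71. *Hes1* exceeded *Hey1* in tdTomato-positive cells, where the TPM ratio of *Hey1* to *Hes1* was 0.771, and was below it in GFP-positive cells, where the ratio was 1.76. *Hes5* was low throughout, at 2.20 and 0.76 TPM in the GFP line and at 3.71 TPM in tdTomato-negative cells, and was listed at 0 in tdTomato-positive cells. *Nrarp*, which encodes a feedback inhibitor, was at 7.55 and 5.50 TPM in the GFP line and at 4.79 and 0.0229 TPM in the tdTomato line. *Hey2*, listed at 0 in the reporter-negative libraries, was at 0.83 and 1.98 TPM in GFP-positive and tdTomato-positive cells. *Heyl* had log2 fold changes of 0.93 and -0.42. For *Hes5*, *Hes7*, and *Nrarp*, the lower values in the GFP line turned with the scaling to OSN markers, and that of *Nrarp* also with the other scalings.

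**Figure D3:**
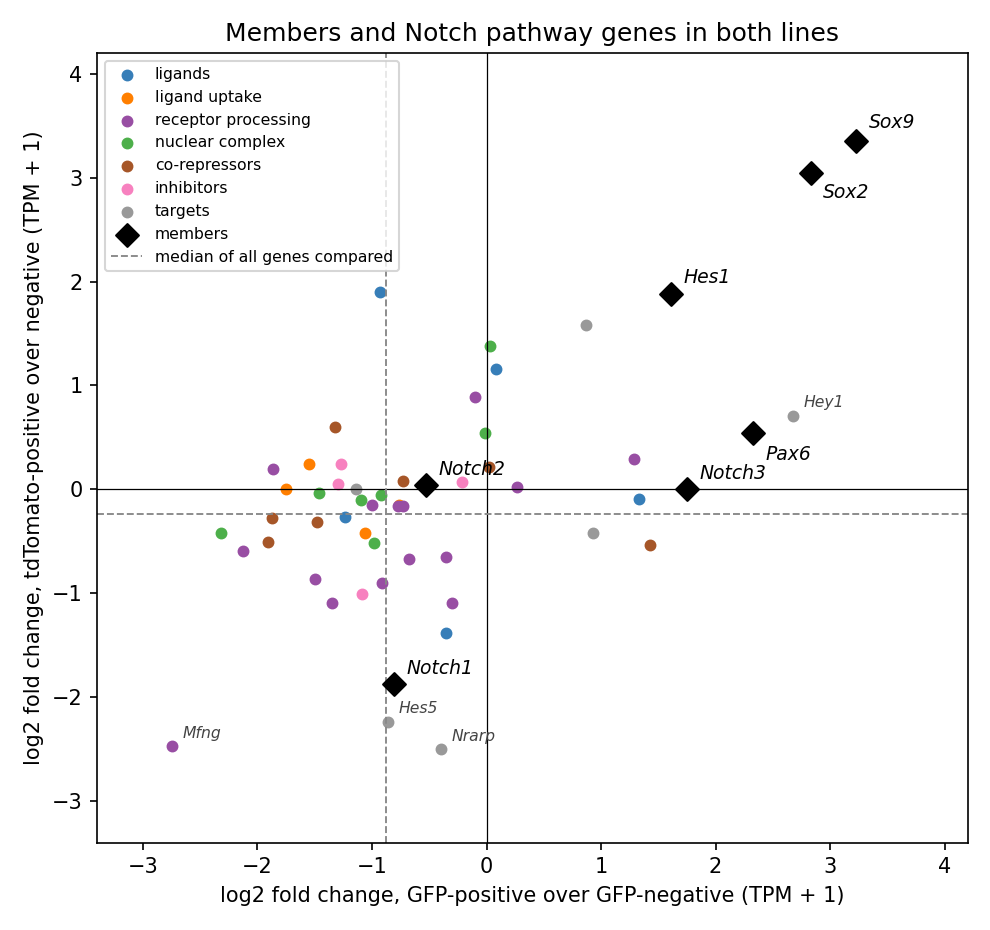
Log2 fold changes on the log2(TPM + 1) scale, GFP line on the horizontal axis and tdTomato line on the vertical axis, for the 7 genes (diamonds) and the listed Notch pathway genes without *Notch4* (dots colored by role, those below 1 TPM included). Dashed lines mark the medians of all genes compared, -0.88 and -0.23. *Sox2*, *Sox9*, and *Hes1* lie at the upper right, and *Notch1* lies with *Hes5* and *Nrarp* below the horizontal line.

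Relatives of the transcription factors did not share 1 pattern. *Sox1*, *Sox3*, and *Sox14* were at or near 0 in all 4 libraries. *Sox21*, which is related to *Sox2*, was at 1.12 and 9.40 TPM in the GFP line and at 5.81 and 11.9 TPM in the tdTomato line (2.29 and 0.92). The relatives of *Sox9*, *Sox8* and *Sox10*, were not higher in both lines. *Sox8* was listed at 0 in both reporter-positive libraries. *Sox10* was higher in GFP-positive cells, at 19.7 against 3.18 TPM, and lower in tdTomato-positive cells, at 0.96 against 3.41 TPM. *Sox11*, a gene of immature neurons, was lower in both lines (-2.23 and -1.75), a sign that turned in the GFP line with the scaling to OSN markers. Of the *Pax* genes besides *Pax6*, *Pax9*, at 0 in the reporter-negative libraries, was at 10.1 and 2.82 TPM in GFP-positive and tdTomato-positive cells. *Pax5*, a factor of B lymphocytes, went from 36.2 to 0.71 TPM and from 24.0 to 2.64 TPM, together with the B cell marker *Cd79a* (191.9 to 0.0293 TPM and 57.8 to 0.134 TPM).

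Transcription factor genes of the olfactory placode were higher in part. Of 10 such genes, 6 were at least 2-fold higher in both lines, *Six4*, *Eya1*, *Eya2*, *Otx2*, *Meis1*, and *Meis2*, beside 8.42% of all genes compared. *Meis2* had the largest change, from 1.45 to 30.4 TPM in the GFP line (3.68) and from 3.54 to 58.3 TPM in the tdTomato line (3.71), which exceeds that of *Sox2* and *Sox9* in both. *Otx2* went from 16.7 to 89.2 TPM and from 37.3 to 103.7 TPM. *Eya2* was at the 2-fold limit in the GFP line (1.00). *Dlx3* was lower in the tdTomato line, from 5.26 TPM to 0 (-2.65), and by less than 2-fold in the GFP line (-0.47). *Dlx5* had values of 0.92 in the GFP line and -0.75 in the tdTomato line. The LIM factor gene *Lhx2* and *Emx2*, both known from OSNs, were lower in GFP-positive cells (-2.61 and -2.65) and by less than 2-fold in tdTomato-positive cells (-0.87 and -0.76). With the scaling to OSN markers both turned higher in both lines, *Dlx3* turned higher in the GFP line, and *Dlx5* in the tdTomato line.

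Of 3 genes of neuronal precursors, 3 were at least 2-fold lower in the GFP line and 2 in the tdTomato line, beside 45% and 23.2% of all genes. *Neurod1* was at 58.1 TPM in GFP-negative against 4.29 TPM in GFP-positive cells, and at 44.5 TPM in tdTomato-negative against 5.52 TPM in tdTomato-positive cells. *Neurog1* was at 4.34 and 1.12 TPM in the GFP line, and at 3.94 TPM in tdTomato-negative cells and listed at 0 in tdTomato-positive cells. *Insm1*, a factor of neuronal precursors, had log2 fold changes of -1.87 and -0.87. With the scaling to OSN markers *Insm1* turned higher in both lines and *Neurog1* in the GFP line, while *Neurod1* kept a negative value in both. The 7 globose basal cell markers used, which include *Neurog1* and *Neurod1*, summed to 196.0 and 71.2 TPM in the GFP line and to 162.8 and 36.6 TPM in the tdTomato line. In the GFP line 4 of these 7 turned higher with the scaling to OSN markers, *Neurog1*, *Ezh2*, *Mki67*, and *Top2a*.

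**Figure D4:**
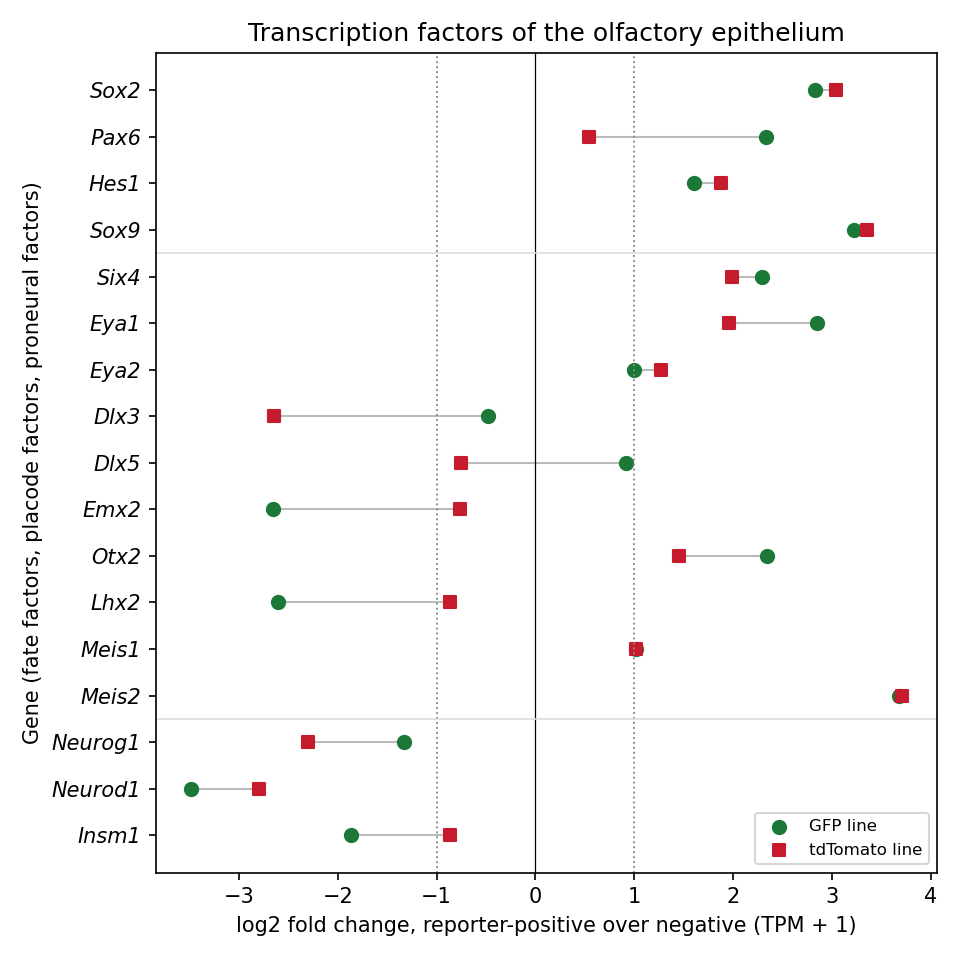
Log2 fold changes, reporter-positive over reporter-negative cells on the log2(TPM + 1) scale, of the 4 fate factors, 10 placode factors, and 3 proneural factors, with 1 circle (GFP line) and 1 square (tdTomato line) for each gene and dotted lines at 2-fold. *Sox2*, *Hes1*, *Sox9*, and 6 placode factors lie at or beyond the right dotted line in both lines, and *Neurog1* and *Neurod1* lie beyond the left one, though *Neurog1* turns in the GFP line with the scaling to OSN markers.

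To find the genes most like each of the 7, the 13010 genes that reached 10 TPM somewhere were ranked by the Euclidean distance between centered log2(TPM + 1) profiles over the 4 libraries, where 0 is an equal profile. The nearest to *Sox2* were *Klf15*, *Erbb3*, and *Smco4*, at distances of 0.143 to 0.252. *Erbb3*, a receptor gene of the epidermal growth factor family, was at 4.86 and 36.5 TPM in the GFP line and 6.50 and 51.8 TPM in the tdTomato line. The nearest to *Sox9* were *Six2*, *Mecom*, and *Adora2b*, at 0.105 to 0.135, and *Six2*, a homeobox gene, was at 7.15 and 79.7 TPM and at 9.84 and 119.5 TPM. The nearest to *Hes1* was *Sil1* (0.174) and the nearest to *Pax6* was *Acadl* (0.158). *Notch1* was nearest to *Haus1* (0.0326), *Notch2* to *Rrs1* (0.0287), and *Notch3* to *Tmem97* (0.222). With only 4 libraries, most of these neighbors change with the measure, and when Pearson correlation was used instead, 0 or 1 of the 3 nearest genes were kept for each of the 7. With a minimum of 1 TPM in place of 10 TPM, 0 of the 3 were kept for *Notch3* and 1 each for *Hes1* and *Notch1*, and 2 or 3 for the other genes.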

How the data were processed

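RNA-seq of FACS-sorted MOE cells was available as 4 libraries, 1 for each group, with groups taken from the sample titles. The authors deposited a table of TPM for 24421 gene symbols, in which each library sums to 1000000 TPM. The submitters' processing notes name Trimmomatic 0.36, Salmon 1.4.0, and mm10, while the methods of the study name Hisat2 and Cufflinks. Which of these gave the TPM values, the annotation, and any filter are not given in the sources used here. Likewise, the labels and the methods name different RNA and library kits. TPM keeps no depth, so no intervals or detection limits were calculated.

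Fold changes were calculated on log2(TPM + 1), and a gene was compared in a line if it had at least 1 TPM in either library. A difference of at least 2-fold was counted, and no test was run. The calculation was tested on simulated data. Values were used as deposited. Alternatives were pseudocounts of 0.1 and 10, limits of 1.5-fold and 4-fold, minimum values of above 0 and of 10 TPM, 3 scalings of the libraries, and, added after the data were seen, the reporter-negative library of the other line. The scalings were the median ratio over 11943 genes, rescaling without the 24 highest genes, and equal means of 12 mature OSN markers.

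The 7 genes, the 26 other gene lists, and the rules were chosen with earlier results of these data known. A few genes were left out of the lists and are not reported here. Genes named are the 7, genes of these lists, genes that overlap the 7, and for each of the 7 the nearest genes by profile. Annotation was from GENCODE M21 and promoters from RefSeq (GRCm38.p6), which had 5 of the 7 genes. Motifs were searched on both strands. Python 3.11.15, NumPy 2.4.6, pandas 2.3.3, and Matplotlib 3.10.9 were used.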

Additional observations from a re-analysis of the deposited data

Results flagged for a closer look

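Of the 174 listed genes, 10 changed by 2-fold or more in opposite directions in the lines, and 0 of the 7 main genes were among them. Of the 143 listed genes that reached 1 TPM in both lines, 10 (6.99%) did so, beside 491 of 15033 genes in all (3.27%). The difference between the lines was not tested, since each group has 1 library. The log2 fold change in the tdTomato line minus that in the GFP line was -3.47 for *Sox10* (2.30 in the GFP line and -1.17 in the tdTomato line). Among horizontal basal cell markers it was -5.30 for *Krt5*, -5.11 for *Krt14*, -6.79 for *Krt15*, and -3.62 for *Trp63*. It was -3.60 for *Cyp2g1* and -4.69 for *Cyp1a2* of sustentacular cells, -2.86 for the gland marker *Muc2*, and -6.07 for the mural marker *Rgs5*. The ensheathing cell marker *Fabp7* (6.23) differed the other way.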

How the results depend on the processing

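With 1 library per group, a log2 value was counted as moved when it changed by more than 0.58, and a count when it changed by more than 1.5 times. No paired analysis was possible because the labels give the groups no replicate numbers. Cells were compared within each line, the lines carry different transgenes and were not taken as replicates, and no library could be left out of a group of 1. *Sox2*, *Hes1*, and *Sox9* were at least 2-fold higher in both lines under all 6 alternatives of pseudocount, scaling, and reporter-negative library, with log2 fold changes from 1.31 (*Hes1*, GFP line) to 5.66 (*Sox2*, GFP line). *Pax6* was so in the GFP line in all 6, and in the tdTomato line in 2. *Notch1* had a negative value in the tdTomato line in all 6 (-2.10 to -0.92) and was 2-fold lower in 4. In the GFP line its value was negative in 5, 2-fold lower in 1 of these, and 1.84 when scaled to mature OSN markers. *Notch3* in the GFP line ranged from 0.63 to 4.17.

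The scalings shift all genes. The median of all genes compared moved by 0.84 and 0.15 (GFP and tdTomato lines) with the median-ratio scaling, by 0.47 and 0.05 without the highest genes, and by 2.71 and 0.99 with the scaling to mature OSN markers. With the median-ratio scaling, the median of the 7 genes was 2.48 in the GFP line, and 6 and 5 Notch pathway genes (*Hes1* and the receptors included) were lower in the GFP and tdTomato lines, against 20 and 8. At the 2-fold limit it left 22.4% of all genes higher and 21.5% lower in the GFP line. Without the highest genes, 9 pathway genes were lower in the GFP line, beside 29.3% of all genes. When scaled to mature OSN markers, the medians of the 7 genes were 4.46 and 1.41, 42 and 17 pathway genes were higher, 0 and 3 were lower, and 0 of the 7 were lower in the tdTomato line.

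With a pseudocount of 10 (6.13% and 8.47% of all genes higher in the GFP and tdTomato lines, 24.0% and 10.5% lower), 3 and 1 pathway genes were higher, against 6 and 5, 1 was lower in the tdTomato line, and 0 of the 7 genes were. At 1.5-fold (60.5% and 35.7% of all genes lower, 23.5% higher in the tdTomato line), 32 and 13 pathway genes were lower, 8 were higher in the tdTomato line, and 1 of the 7 (*Notch1*) was lower in the GFP line. At 4-fold (7.36% and 8.20% higher, 16.7% and 11.4% lower), 3 of the 7 genes were higher in the GFP line (*Sox2*, *Pax6*, and *Sox9*) and 0 were lower in the tdTomato line, 1 and 0 pathway genes were higher, and 3 and 3 were lower. With the reporter-negative library of the other line, 14.9% and 17.6% of all genes were higher, and 44.6% and 24.8% were lower. With that choice, 5 of the 7 genes were higher in tdTomato-positive cells (*Pax6* and *Notch3* added), and the median of the 7 was 1.49. In GFP-positive cells 1 of the 7 (*Notch1*) was lower. Of the pathway genes, 2 and 9 were higher in the GFP and tdTomato lines. The unknown depth limits genes near 1 TPM most, such as *Sox9* and *Notch3* in GFP-negative cells.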
